A study of Arabidopsis thaliana with 8 samples.

Results

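Transcript levels in systemic leaves of dTLec plants were compared with those in systemic leaves of wild-type plants, 2 h after other leaves had been wounded. The comparison takes 4 of the 8 arrays of the study, chosen by their titles: 2 arrays of dTLec systemic leaves and 2 of wild-type systemic leaves. dTLec stands for dTLec1-1 (SALK__132166), an insertion line of Arabidopsis thaliana in the Col-0 ecotype, and the wild type is Col-0 itself. Plants of both genotypes were 5 weeks old, had been kept for 2 days in the dark at 4 °C as seeds and had grown in short days of 10 h light and 14 h darkness at 21 °C. Part of the rosette leaves had been crushed across the midvein with tweezers. Systemic leaves is the usual name for the unwounded leaves of such a plant. The remaining 4 arrays hold control leaves of dTLec (2 arrays) and of the wild type (2 arrays), also taken 2 h after wounding. They enter here as the level in the leaves labelled control and through the shared estimate of the spread. The mutant is represented by 1 insertion line. Which gene carries the insertion is not in the labels, and the level of that gene was not checked.

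A local wound sends signals through the vascular tissue to distant leaves, where jasmonic acid and its isoleucine conjugate accumulate. The conjugate is perceived by the receptor COI1, JAZ repressor proteins are degraded, and MYC transcription factors then activate defence and jasmonate metabolism genes. Among these are enzymes that consume the hormone again, such as the JOX oxygenases, which hydroxylate jasmonic acid, and JMT, which methylates it. Lectins are sugar-binding proteins and include jacalin-related proteins that belong to the jasmonate-inducible defences of this species.

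Each array gave log2 values for 22746 probe sets, and 13513 of these match 1 gene. The array medians were between 5.82 and 5.86. The leaf genes RCA and LHCB4.2 (activation of Rubisco and light harvesting) had values from 13.57 to 13.74 on the 4 systemic arrays, and PYK10, a root beta-glucosidase, from 4.22 to 4.33. The guard-cell regulator gene FAMA had 6.38 and 6.34 on the dTLec arrays, against 6.58 and 6.66 on the wild-type arrays (adjusted p 0.303 in limma). Of the listed markers of epidermis, phloem and xylem, 0 were measured by name, so the share of these tissues in the samples was not tested. Over all probe sets, which are not replicates, the dTLec systemic arrays correlated with each other at r = 0.9941 and the wild-type ones at 0.9963. Between the genotypes r ranged from 0.9856 to 0.9903. The labels do not say whether replicates are separate plants or pools, and the p-values measure variation between these arrays alone, possibly only technical variation. Differences are given as dTLec minus wild type on the log2 scale, and fewer cells of a type cannot be told apart from less RNA per cell.

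More probe sets were called lower than higher in dTLec systemic leaves, and the larger differences were mostly decreases. Of the 22746 probe sets, 1257 had an adjusted p under 0.05 in limma's moderated test (5.53% of those tested), 744 lower (3.27%) and 513 higher (2.26%). At least 2-fold differences were found at 126 of the lower calls (0.554% of all tested) and at 32 of the higher ones (0.141%). The replicate 1 and replicate 2 arrays have equal means at every probe set in the deposited values, so this test counts more free comparisons than the values hold. With the replicate number as a block, which takes this into account, 213 passed (0.936%), of which 150 were lower (0.659%) and 63 higher (0.277%). All 213 were among the 1257. At least 2-fold differences were 81 of these lower (0.356%) and 23 of these higher (0.101%) probe sets. In that smaller set the median difference was −1.10 for the lower and 0.87 for the higher probe sets, against 0.03 over all. The arrays of the genotypes did not overlap at 54.7% of all probe sets (24.0% lower and 30.8% higher in dTLec). All 744 lower and all 513 higher calls were among these.

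**Figure D1:**
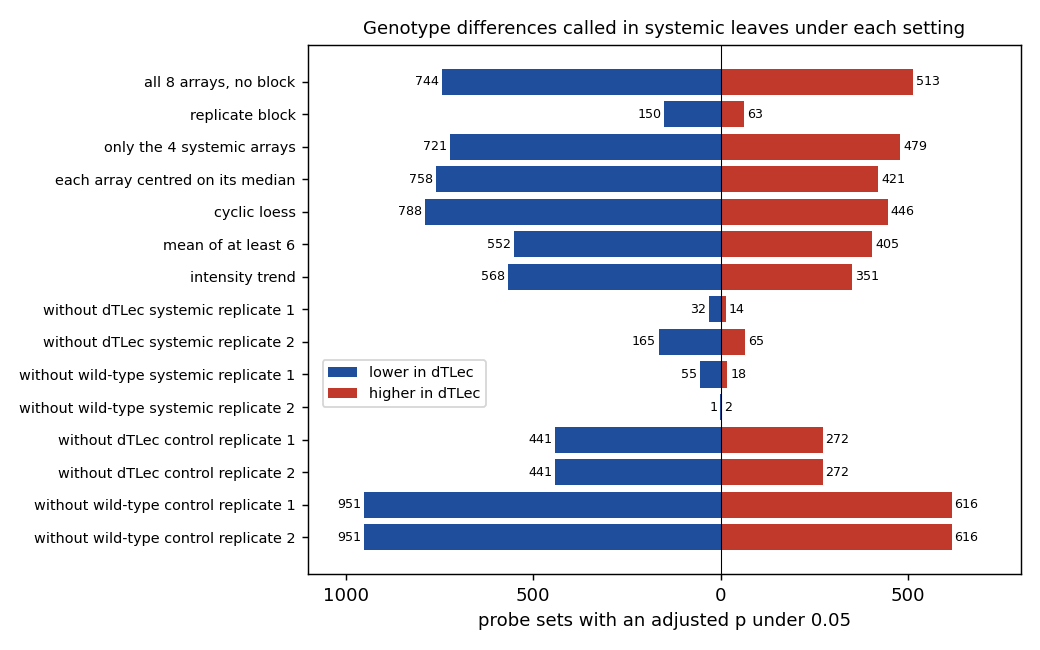
Number of probe sets with an adjusted p under 0.05 for dTLec against wild type in systemic leaves under each setting (horizontal axis), with those lower in dTLec to the left of 0 and those higher to the right. The bars shrink to 150 and 63 with the replicate block and to 1 and 2 without wild-type systemic replicate 2.

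The number of calls depended on each systemic array. Leaving out dTLec systemic replicate 1 gave 46 calls and leaving out its replicate 2 gave 230. Leaving out wild-type systemic replicate 1 gave 73, and leaving out wild-type systemic replicate 2 gave 3. With dTLec control replicate 1 or 2 left out it was 713, and these arrays enter only through the spread. The genes named below as the 12 lowest and 12 highest were chosen among those that passed with and without the block. Their adjusted p lay between 0.00448 and 0.0224 (0.00861 and 0.0469 with the block) for the lower and between 0.00448 and 0.0204 (0.00978 and 0.0499) for the higher genes. All 24 kept their direction whichever of the 8 arrays was left out. This was fixed in advance, since they were chosen for systemic arrays that do not overlap and control arrays do not enter the difference. Of the 24, 10 still passed when dTLec systemic replicate 1 was left out and 21 when its replicate 2 was. It was 11 with wild-type systemic replicate 1 left out and 0 with wild-type systemic replicate 2 left out, where their adjusted p reached 0.15.

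Genes of jasmonate metabolism were among those lowest in dTLec. JRG21 (AT3G55970), also called JOX3, had values of 5.93 and 6.90 on the dTLec systemic arrays, against 8.80 and 9.13 on the wild-type systemic arrays. The genotypes did not overlap, and the difference of −2.55 ± 0.40 (SE, n = 2 arrays per group) made it 5.88-fold lower in dTLec (adjusted p 0.0224, limma). JMT had 6.46 and 6.73 in dTLec, against 8.33 and 8.83 in the wild type. Its difference was −1.98 ± 0.25, 3.95-fold lower (adjusted p 0.0146). OPCL1 encodes a peroxisomal ligase of jasmonate synthesis and had 7.82 and 7.91 in dTLec, against 8.69 and 9.06 in the wild type. It was 2.01-fold lower (−1.01 ± 0.16, adjusted p 0.0231), but the adjusted p was 0.0538 with the replicate block. Control-leaf means in dTLec and the wild type were 4.65 and 4.82 for JRG21, 4.89 and 5.72 for JMT, and 7.97 and 7.99 for OPCL1. The dTLec systemic values of JRG21 and JMT lay above all control-leaf values, and those of OPCL1 lay near them.

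The related oxygenase genes had negative differences and did not pass the test on all 8 arrays. JOX4 (AT2G38240) had 9.84 and 10.93 in dTLec, against 11.99 and 12.15 in the wild type (−1.69 ± 0.55, adjusted p 0.123, limma). JOX2 (AT5G05600) had 9.55 and 10.66, against 11.60 and 11.84 (−1.62 ± 0.41, adjusted p 0.0678). For JOX2, JRG21 and JOX4 the 2 wild-type arrays lay closer together than the 2 dTLec arrays, whose replicate 2 was the higher one each time. On the 4 systemic arrays alone both passed, JOX4 with an adjusted p of 0.0401 and JOX2 with 0.0479 (limma). Over all alternatives the adjusted p ran between 0.000178 and 0.737 for JOX4 and between 0.00019 and 0.647 for JOX2. JOX1 (AT3G11180) had 4.28 and 4.45 in dTLec, against 4.83 and 4.58 in the wild type (adjusted p 0.154). Control-leaf means in dTLec and the wild type were 7.08 and 7.31 for JOX4 and 7.59 and 8.28 for JOX2. For JOX4 and JOX2 the dTLec systemic values lay above all control-leaf values.

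Regulators and classical defence outputs of the pathway that were measured by name, 2 of 20 and 3 of 12 listed, did not pass. MYC3, a transcription factor that JAZ proteins repress, had 7.16 and 7.21 in dTLec, against 7.22 and 7.64 in the wild type (−0.25 ± 0.16, adjusted p 0.389, limma). Its homologue MYC4 had 6.53 and 6.33, against 6.34 and 6.19 (0.17 ± 0.12). The defensin gene PDF1.2 had 5.21 and 6.48 in dTLec, against 6.22 and 5.09 in the wild type, so that the arrays of the genotypes overlapped. They also overlapped for the thionin gene THI2.1, with 4.86 and 5.23 in dTLec, against 5.15 and 5.02 in the wild type. BSMT1, a methyltransferase of benzoate and salicylate, had 4.50 and 4.59 in dTLec, against 4.79 and 5.58 in the wild type (adjusted p 0.22), and the lipase gene DGL differed by 0.07 ± 0.10. Of the 60 genes in the jasmonate lists, 12 were measured by name, 3 of them lower, 0 higher and 9 not past the test. Among all 13355 genes measured by name, 2.76% were lower and 2.05% higher.

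**Figure D2:**
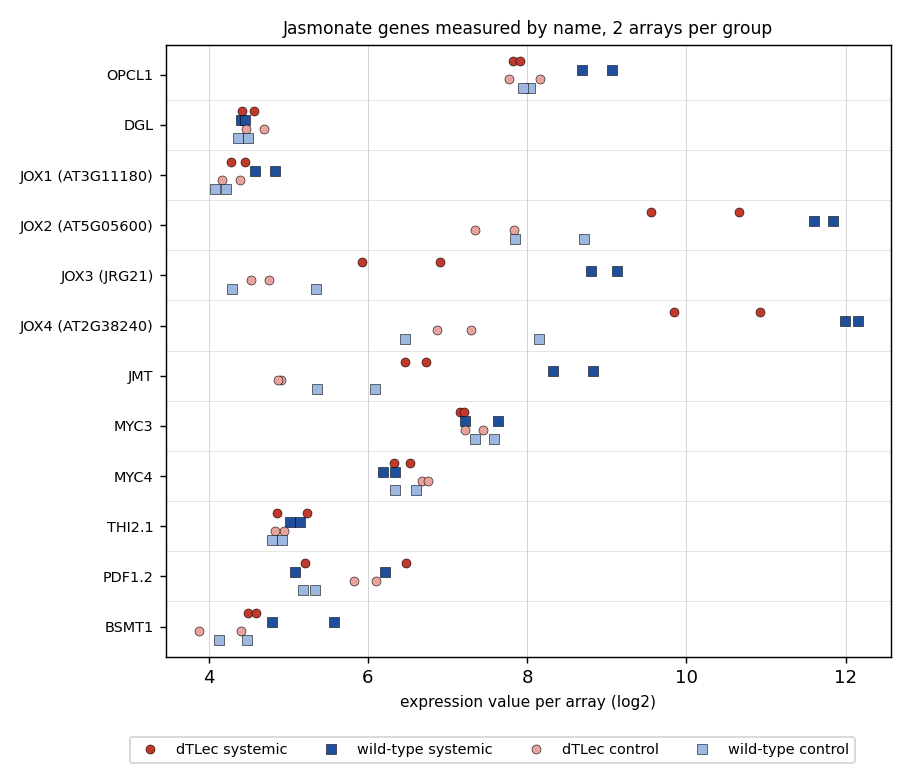
Log2 expression value per array (horizontal axis) of the 12 jasmonate genes measured by name, with 2 points for each of the 4 groups. Both dTLec systemic points of JRG21, JMT and OPCL1 lie to the left of both wild-type systemic points, and those of PDF1.2 and THI2.1 overlap with them.

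The other genes among the 12 lowest encode proteins of several kinds. AT1G10585, a bHLH protein gene, had 5.60 and 6.35 in dTLec, against 8.48 and 8.55 in the wild type. It was 5.8-fold lower (−2.54 ± 0.27, SE, n = 2 arrays per group; adjusted p 0.00965, limma). The set held 2 MATE transporter genes, of a family that exports small molecules from the cytosol. AT1G66760 had 7.18 and 7.33 in dTLec, against 9.03 and 9.60 in the wild type, and was 4.17-fold lower. AT5G44050 had 5.41 and 5.39, against 7.08 and 7.58, and was 3.81-fold lower. The control-leaf means of AT5G44050 were 5.14 in dTLec and 5.50 in the wild type, near the dTLec systemic values.

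Among the 12 lowest were also TBL26 and IRX15-L, which act on wall polysaccharides. TBL26, of the trichome birefringence-like family that acetylates wall polysaccharides, had 5.34 and 5.50 in dTLec, against 7.30 and 7.87 in the wild type (4.49-fold lower, −2.17 ± 0.23). In control leaves its mean was 5.21 in dTLec and 5.21 in the wild type. IRX15-L, which takes part in xylan synthesis, had 5.02 and 5.37 in dTLec, against 6.78 and 6.83 in the wild type (3.05-fold lower). The set further held AT4G17470 and AT4G24380, both of hydrolase families. AT4G17470, an alpha/beta hydrolase, had 7.55 and 7.54 in dTLec, against 9.43 and 9.67 in the wild type (4.02-fold), and AT4G24380 had 7.06 and 7.42, against 8.56 and 9.03 (2.94-fold).

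AT5G19110, an aspartyl protease gene, had the smallest adjusted p of the 12 lower genes (0.00448, limma). Its values were 5.76 and 5.92 in dTLec, against 7.63 and 7.80 in the wild type, a difference of −1.88 ± 0.12. AT3G28220, which encodes a TRAF-like protein, had 9.34 and 9.64 in dTLec, against 11.39 and 11.21 in the wild type (3.5-fold lower). AT3G28270 had 5.14 and 5.68, against 7.50 and 7.39 (4.11-fold lower).

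**Figure D3:**
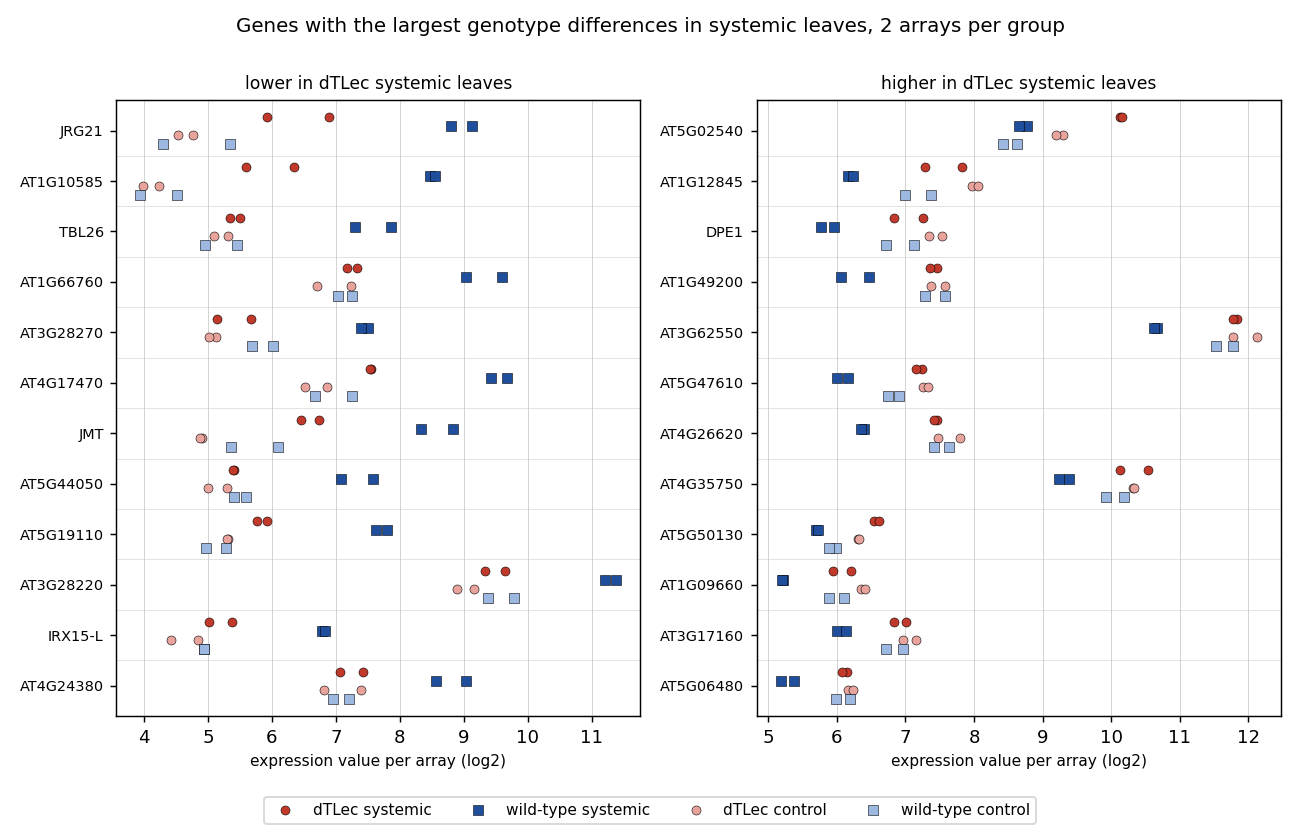
Log2 expression value per array (horizontal axis) of the 12 genes lowest and the 12 genes highest in dTLec systemic leaves among those past the test with and without the replicate block, with 2 points for each of the 4 groups. Dark red dTLec systemic points and dark blue wild-type systemic points do not overlap for any of the 24 genes, a condition of their choice. In the left panel the dark blue points lie to the right of all other groups.

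The genes higher in dTLec differed less. AT5G02540, which encodes a Rossmann-fold dehydrogenase, had 10.13 and 10.16 in dTLec, against 8.77 and 8.65 in the wild type, 2.72-fold higher (1.44 ± 0.10, adjusted p 0.00448, limma). A second gene of this fold, AT5G50130, had 6.54 and 6.61 in dTLec, against 5.70 and 5.73 in the wild type (1.82-fold higher). DPE1 encodes the plastid disproportionating enzyme of starch breakdown and had 7.25 and 6.84 in dTLec, against 5.96 and 5.77 in the wild type (2.26-fold higher, adjusted p 0.0204 and 0.0499 with the block). AT1G12845, of unknown function, had 7.83 and 7.29 in dTLec, against 6.17 and 6.23 in the wild type (2.57-fold higher).

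A pair of RING-finger genes, whose products are likely ubiquitin ligases, were in this set. AT5G47610 had 7.24 and 7.16 in dTLec, against 6.16 and 6.01 in the wild type (2.17-fold higher), and AT1G49200 had 7.46 and 7.36, against 6.47 and 6.06 (2.21-fold higher). AT3G62550, a universal stress protein gene, had 11.83 and 11.77 in dTLec, against 10.66 and 10.63 in the wild type (2.22-fold higher). The remaining members were AT4G26620, of the sucrase/ferredoxin-like family (2.1-fold higher), the SEC14-like gene AT4G35750 (2.02-fold), the KH-domain RNA-binding gene AT1G09660 (1.83-fold), AT3G17160 (1.81-fold) and the lipid-recognition gene AT5G06480 (1.78-fold).

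Among probe sets of 1 gene past the test with and without the block, 69 were lower and 25 higher (0.517% and 0.180% of all genes measured by name, the higher ones being 24 genes), and 17 genes carry a symbol beyond their locus name. Those 17 were looked at after their values were seen. Of them, 14 were lower and 3 higher. GTR1, a glucosinolate importer, had 7.40 and 7.49 in dTLec, against 8.80 and 9.11 in the wild type (2.84-fold lower, adjusted p 0.0154, limma). The sugar transporter gene SWEET4 had 6.75 and 6.78, against 7.88 and 8.32 (2.52-fold lower), and SWEET17, a fructose transporter of the vacuole, had 7.87 and 7.78, against 8.53 and 8.61 (1.68-fold lower). NAI1, the bHLH factor needed for endoplasmic reticulum bodies, was 1.91-fold lower, with 5.38 and 5.49 in dTLec, against 6.28 and 6.45 in the wild type. BGLU40, a beta-glucosidase gene, had 8.97 and 9.39, against 10.65 and 10.82 (2.94-fold lower). MSRB6 (methionine sulfoxide reductase) was 2.22-fold, GLC 2.17-fold, HL (a HAL2-like phosphatase) 1.93-fold and TBL41 1.65-fold lower. Beside DPE1, CKS, which activates the wall sugar Kdo, was 1.71-fold and ZCF37 1.64-fold higher.

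The jacalin-related lectin gene JAL23 was also lower, with 5.04 and 5.24 in dTLec, against 6.26 and 6.34 in the wild type (2.23-fold, −1.16 ± 0.12, adjusted p 0.00857, limma). It was 1 of 5 measured among 17 listed lectin and lectin-related genes, and the one that passed, while 2.76% of all genes measured by name were lower. EULS3, a Euonymus-type lectin gene, had 6.48 and 6.89 in dTLec, against 7.59 and 7.59 in the wild type (−0.90 ± 0.24, adjusted p 0.0763). JAL34 had 6.52 and 6.58, against 6.80 and 7.94 (adjusted p 0.339), and JAL22 and JAL33 differed by 0.03 and −0.00. The median of the 5 was −0.82.

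Other pathways were represented by few genes, and the annotation names 52 of the 290 listed genes in all. In the cold and dehydration list, COR15B, a chloroplast protectant, was 1.7-fold lower in dTLec with 9.05 and 9.38, against 9.98 and 9.98 (adjusted p 0.0329, limma, and 0.0781 with the block). COR15A, COR47 and the dehydrin gene LTI30 had differences of −0.79, −0.37 and −0.85 and did not pass. UGT74B1, a glucosyltransferase of glucosinolate synthesis, was 1.7-fold lower with 7.88 and 7.88 in dTLec, against 8.45 and 8.83 (adjusted p 0.0341, and 0.0792 with the block). BCAT4, an aminotransferase of the same synthesis, had −0.75 (adjusted p 0.086). In tryptophan synthesis, AT2G04400 had −0.54 (adjusted p 0.129).

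In the wall-loosening list 1 of 3 measured genes was higher, and 0 passed with the block. EXPA8, an expansin gene, had 10.53 and 10.15 in dTLec, against 9.13 and 8.36 in the wild type (3.02-fold higher, 1.59 ± 0.33, adjusted p 0.0414 in limma and 0.0788 with the block). The wild-type arrays of EXPA8 differed from each other more than the dTLec arrays did. Of the other genes measured from the wall-loosening list, EXPA4 had a difference of 0.52 and XTH33 of 0.62, neither past the test. The median was 0.08 over all 10 EXPA genes measured by name and 0.01 over all 9 XTH genes. XTH18, a xyloglucan-modifying gene outside that list, was called lower, with 5.31 and 5.68 in dTLec, against 6.45 and 6.25 in the wild type (−0.86 ± 0.17, adjusted p 0.0363, and 0.0794 with the block). In the auxin list 1 of 4 measured genes was higher, and 0 passed with the block. IAA29, an auxin-responsive repressor, had 10.29 and 10.55 in dTLec, against 9.88 and 9.73 in the wild type (1.53-fold higher, adjusted p 0.0384, and 0.0932 with the block). The auxin-conjugating GH3.3 (0.60), GH3.5 (0.92) and GH3.1 (0.01) did not pass.

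In the list of rapid stress regulators 0 of 5 measured genes passed, and the median difference was 0.20. ZAT10, a zinc-finger repressor, had 7.93 and 8.91 in dTLec, against 8.13 and 8.91 in the wild type. WRKY53 and WRKY22 differed by 0.20 ± 0.19 and 0.51 ± 0.26. Of 4 listed calmodulin-like genes measured by name 0 passed, with differences from −0.85 to −0.05. Over the 7 genes measured under a CML symbol, 0 were called, 5 had negative differences and the median was −0.13. The single measured members of the salicylate, ethylene, clock, oxidative stress and starch lists had differences of 0.18, 0.02, 0.34, 0.08 and 0.40, and the 3 anthocyanin genes had a median of 0.04. No gene of the abscisic acid, heat shock and senescence lists was measured by name.

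Families defined by a shared symbol beginning were added after the annotation was seen. Of 47 families with at least 5 measured genes, 18 had a called member and 3 had a member past the test with and without the block (BGLU, SWEET and TBL). Over all genes measured by name, 2.76% were lower and 2.05% higher. Of 47 UDP-glycosyltransferase genes, 6 were lower and 0 higher, and 0 of the 6 passed with the block. The median over the 47 was −0.05, and 29 had negative differences. UGT84A3 had the largest difference of the 6 (−1.37 ± 0.25, adjusted p 0.0302, limma). Of 22 TBL genes 3 were lower, TBL26, TBL41 and TBL37, and the family median was −0.05. The SWEET family had 2 of 14 lower and a median of 0.07.

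About as many of the calls fell on probe sets without a gene name as on named ones, and the largest differences were there. Of the 150 lower probe sets past the test with the block, 77 had no gene name, and of the 63 higher ones 37. Over all 22746 probe sets, 8730 had no gene name, a smaller share than among these calls. The probe set 264213_at had 4.87 and 4.32 in dTLec, against 9.89 and 9.70 in the wild type, a difference of −5.20 ± 0.33 or 36.8-fold (adjusted p 0.00448, limma). The probe set 264153_at had 5.33 and 4.82 in dTLec, against 9.81 and 9.68 in the wild type (−4.67 ± 0.33, 25.5-fold). Both were low in the mutant in either leaf type. In control leaves 264213_at averaged 4.70 ± 0.21 in dTLec, against 7.83 ± 0.74 in the wild type, and 264153_at 5.08 ± 0.30, against 7.94 ± 0.74 (SD, n = 2). These were the only 2 of 22746 probe sets at which all 4 dTLec arrays lay at least 2-fold below all 4 wild-type arrays, and at 0 did they lie as far above.

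On the other side, 245325_at had 9.31 and 8.83 in dTLec, against 5.85 and 5.78 in the wild type (3.26 ± 0.18, 9.55-fold higher, adjusted p 0.00343, limma). The dTLec systemic arrays lay near the control leaves, which averaged 9.52 in dTLec and 8.82 in the wild type. For 260957_at the values were 7.53 and 7.27 in dTLec, against 5.34 and 5.47 in the wild type (1.99 ± 0.14, 3.98-fold higher). Its control-leaf means were 7.27 in dTLec and 6.91 in the wild type.

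To ask whether these differences were particular to systemic leaves, the genotype difference in control leaves was subtracted in the same model. At 1 of 22746 probe sets (0.00440%) the subtracted difference passed, and with the replicate block at 0, with 2553 and 1481 at an unadjusted p under 0.05 (limma). That probe set has no gene name. It had 8.72 and 8.65 in dTLec systemic leaves, against 7.11 and 7.02 in wild-type systemic leaves, and 9.15 and 9.35 in dTLec control leaves, against 9.62 and 9.59 in wild-type control leaves. For the 24 genes named by size, the adjusted p of the subtracted difference lay between 0.0515 and 0.513, so that a difference between leaf types was not shown for any of them. AT5G19110 came nearest, with −1.88 in systemic and 0.18 in control leaves.

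The genotype difference in control leaves, which uses other arrays, was smaller for most of the called probe sets. In control leaves 0 probe sets passed (0%, limma, with 2104 at an unadjusted p under 0.05 and 0 with the replicate block). Of the 744 probe sets lower in dTLec systemic leaves, 584 (78.5%) also had a lower mean in dTLec control leaves, while 47.3% of all probe sets did. Of the 513 higher ones, 395 (77%) had a higher mean there, against 52.7% of all. The median difference over the 744 was −0.62 in systemic and −0.13 in control leaves, and over the 513 it was 0.53 and 0.12. Both sets were chosen on the systemic arrays, so the larger systemic median is a description. Over all probe sets the differences in both leaf types correlated at r = 0.378, a description across probe sets of 8 arrays scaled together. Whether control and systemic leaves came from the same plants is not stated.

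**Figure D4:**
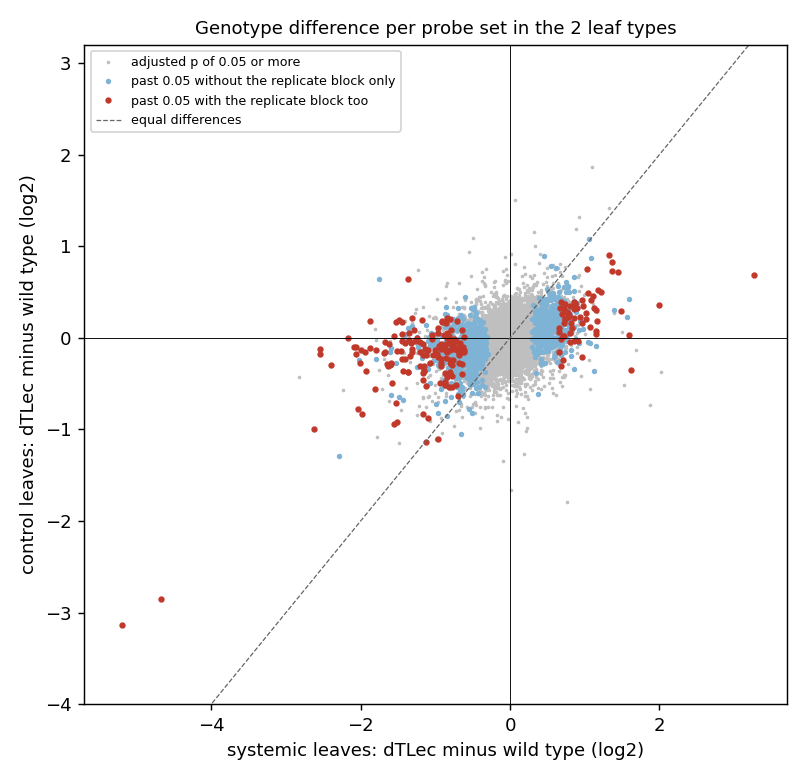
Genotype difference (dTLec minus wild type, log2) of each probe set in systemic leaves (horizontal axis) and in control leaves (vertical axis), with the 1257 called probe sets in colour and the dashed line marking equal differences. Most coloured points lie nearer to the horizontal line at 0 than to the dashed line, and the 2 points at the lower left are 264213_at and 264153_at.

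The levels behind these medians are as follows. Over the 744 lower probe sets the median level was 6.99 in dTLec systemic and 7.80 in wild-type systemic leaves, with 6.90 in dTLec control and 7.03 in wild-type control leaves. Over the 513 higher ones it was 7.38 in dTLec systemic and 6.70 in wild-type systemic leaves, with 7.44 in dTLec control and 7.29 in wild-type control leaves. In both sets the wild-type systemic leaves had the median farthest from the other 3 groups. The same 2 wild-type systemic arrays chose the sets, so their distance is a description. Within dTLec, replicate 2 was above replicate 1 at 75.3% of the 150 probe sets lower with the block, against 50.1% of all probe sets. In the wild type it was above replicate 1 at 68.7% of the 150, against 46.4% of all.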

How the data were processed

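The authors deposited log2 expression values per probe set, 1 column per array, hybridised from 10 µg of total RNA on Affymetrix ATH1 arrays per the labels' protocols. RMA and Partek are named per the submitters' processing notes with no version. Their role is not stated. That the deposited scale is log2 was read from its values (3.24 to 14.28). At every probe set the mean of the 4 replicate 1 arrays equals that of the 4 replicate 2 arrays within 7.5e-05, so the difference between replicate numbers is absent from the deposited values. Arrays have no read depth; their number limits the precision.

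Of 22810 probe sets, 64 controls (IDs starting AFFX) were left out. Genes were named through the platform annotation, with symbols updated by gene identifier through the TAIR10.1 gene table (13436 probe sets, 13286 loci). A gene with several probe sets went by the brightest. Probe sets with several genes (503) or none (8730) are not named, and no sequences were used. Gene positions on the chromosomes served only to order the measured genes for the closing count of neighbours.

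limma 3.58.1 in R 4.3.3 fitted 1 mean per group to all 8 arrays (4 residual degrees of freedom, 3 with the replicate block), with two-sided tests and Benjamini-Hochberg adjustment over 22746 probe sets at 0.05. Errors of differences are limma's moderated SE. The model was tested on simulated data for the size of the differences it returns, with no limit set on false calls. Named genes are the 12 lowest and 12 highest differences past the test with and without the block and with no overlap of arrays, the measured jasmonate genes, passing members of other lists, and 2 unnamed probe sets in each direction. Members, lists and rules were chosen with earlier results of these data known. Alternatives were the replicate block, the 4 systemic arrays alone, array centring, cyclic loess, a minimum mean of 6, an intensity trend, thresholds of 0.01 and 0.1, and each array left out.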

Additional observations from a re-analysis of the deposited data

Results flagged for a closer look

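The genotype difference in systemic leaves exceeded that in control leaves, by the model's own test of this, at 1 probe set without a gene name, 263443_at, by 1.97 ± 0.12 in log2 units (SE from limma, 2 arrays in each group; adjusted p 0.0187). The difference was 1.62 in systemic and −0.35 in control leaves. The adjusted p was 0.0849 with the replicate block.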

How the results depend on the processing

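In systemic leaves the 1257 calls became 213 with the replicate block, 65 at an adjusted p of 0.01 and 2491 at 0.1, and between 3 and 1567 with single arrays left out. The block combined with leaving out a systemic array gave 1 (without dTLec systemic replicate 1), 22 (without dTLec systemic replicate 2), 0 and 0 (without either wild-type systemic array). The 4 systemic arrays alone gave 1200, and 1692 with the block. Array centring gave 1179, cyclic loess 1234, the minimum mean of 6 gave 957 and the intensity trend 919. The minimum mean left 10900 probe sets to test. Lower calls outnumbered higher ones in each setting that kept all 4 systemic arrays, but not in each setting with a systemic array left out. The block with left-out arrays and with the 4 systemic arrays was chosen after seeing the data. The test between leaf types gave 0 with the block, 8 after centring, 6 with the intensity trend and 0 to 5 with single arrays left out, in place of 1. Control leaves gave 0 to 2 with single arrays left out, in place of 0.

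Of the 24 genes named by size, 24 passed with the 4 systemic arrays, centring, cyclic loess and the intensity trend. Passing with the block was a condition of their choice. The 16 with a mean of at least 6 passed under that filter. Directions turned at 4 uncalled genes. THI2.1 was −0.22 without dTLec systemic replicate 2, 0.15 (0.21 with the block) without dTLec systemic replicate 1 and 0.03 (0.05 with the block) without wild-type systemic replicate 1. DGL was −0.00 (−0.03) without dTLec systemic replicate 1. PDF1.2 was 0.83 without dTLec systemic replicate 1, −0.44 (−0.65) without dTLec systemic replicate 2 and −0.37 (−0.56) without wild-type systemic replicate 2, and MYC3 was 0.03 with the block and without that array. The cause was not tested. Deviations of same-numbered arrays from their group means correlated between −0.58 and −0.13 for the 6 pairs of groups. Values whose replicate means were made equal must sum to 0 over the 4 groups, so the check does not show whether the numbers pair samples. The probe set 245325_at passed whichever single array was left out (adjusted p up to 0.0494, limma).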

Other observations

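Among 369 named genes lower in dTLec systemic leaves, 10 (2.71%) were followed by another lower gene in the chromosomal order of measured genes, while 2.78% of all measured genes were lower. For the 273 higher genes this was 10 (3.66%), against 2.05% of all measured genes. These shares were not tested.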
